A study of Mus musculus with 8 samples.

Results

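The genes described here are 10 immediate early genes of mouse bone marrow T cells: Fos, Fosb, Jun, Junb and Jund, which encode the subunits of the transcription factor AP-1, Egr1, Egr2 and Egr3, which encode zinc finger transcription factors, and Dusp1 and Ier2. They were chosen by symbol, as 10 of the 32285 genes listed in 4 single-cell libraries. The rule itself uses no measured value, but the choice was made with earlier results of these data known. Each library held bone marrow T cells of 2 pooled C57BL/6 mice. The Runx1::Runx1t1 group, with 2 pools, carried Runx1Runx1t1/+ together with Mx1-Cre, and the control group, with 2 pools, carried Runx1Runx1t1/+ without Mx1-Cre. Mx1-Cre is switched on by interferon and is not particular to T cells. Mice of both groups received Poly(I:C), an inducer of interferon, in 4 injections of 5 mg/kg, and were killed 4 weeks after induction, so the controls differ from the other mice in the Cre and in what it recombines, not in the injections. Bones were ground in cold buffer with EDTA, T cells were enriched by removal of other cells, and DAPI- mCherry- CD3+ cells were sorted. mCherry reports the fusion gene, so the sorted cells are T cells without that signal from fusion-bearing or control marrow.

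Immediate early genes are transcribed within minutes of a signal and need no new protein for it. Kinases of the MAP kinase family act on serum response factor and its Elk partners and on CREB, which already sit at the promoters of these genes. Jun proteins pair with each other or with Fos proteins to form AP-1, which in T cells works with NFAT after engagement of the T cell receptor. Egr2 and Egr3 are known for limiting T cell activation, Dusp1 encodes a phosphatase that switches MAP kinases off, and Ier2 encodes a small nuclear protein of the same early wave. The same genes respond to cell dissociation and sorting, so their level in freshly isolated cells can hold a part that comes from handling.

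The libraries held 56649 cell barcodes, of which 52924 remained after filters on genes detected, mitochondrial share and doublets, with 90958101 to 102883449 unique molecular identifiers (UMIs, counts of single RNA molecules) per library and a median of 6239 to 6368 per barcode. Pairs of libraries shared 226 to 263 barcodes, 1.77% to 1.97% of the smaller library. T cells, with at least 1 UMI of Cd3d, Cd3e or Cd3g, were put into 4 classes by UMIs of other genes. Cd8 T cells had UMIs of Cd8a or Cd8b1 and none of Cd4 or Foxp3, Cd4 T cells had UMIs of Cd4 and none of Cd8a, Cd8b1 or Foxp3, Foxp3 T cells had a Foxp3 UMI and none of Cd8a or Cd8b1, and co-receptor-negative T cells had none of these. Cd8 T cells numbered 26412, Cd4 T cells 5764, Foxp3 T cells 2618 and co-receptor-negative T cells 12957, together 90.2% of the cells kept. A cell of the Cd4 or Cd8 lineage with no co-receptor UMI falls among the co-receptor-negative cells. Summed T cell markers were 2838 to 4464 CPM (counts scaled to a library size of 1000000) in the 4 classes and 7 to 10 CPM in cells without Cd3 UMIs gated as myeloid-like. These markers include the gate genes Cd3d, Cd3e and Cd3g, so part of this contrast is set by the gate. When cells were instead classed by clusters of their whole expression, 85.7% of gated Cd8, 51.2% of Cd4, 85.8% of Foxp3 and 67.3% of co-receptor-negative T cells fell in clusters of the same class, so gate and clusters overlapped least for Cd4 T cells, and which of them holds fewer other cells was not tested.

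The members lie on several chromosomes. In the GRCm38 assembly, Fos is at chr12:85473890-85477273 on the plus strand, Fosb at chr7:19302696-19310051 on the minus strand, Jun at chr4:95049034-95052222 on the minus strand and Jund at chr8:70698949-70700616 on the plus strand. Junb is at chr8:84974484-84978718 and Ier2 at chr8:84661331-84662852, both on the minus strand of the same chromosome. Egr2 is at chr10:67535475-67542188 and Egr3 at chr14:70077203-70082614, both on the plus strand, and Dusp1 is at chr17:26505590-26562128 on the minus strand. RefSeq promoters (GRCm38.p6) were listed for 7 of the members, Fos, Fosb, Jun, Junb, Jund, Egr2 and Dusp1, and the 250 bases before each start were searched on both strands for 4 motifs of the upstream factors. The windows with a match are shown, with the match in capitals, because the serum response and cyclic AMP response elements are known as the points where kinase signals reach such genes and the Egr site as the binding sequence of the Egr members.
Dusp1, cyclic AMP response element (TGACGTCA), chr17:26508597-26508626, minus strand: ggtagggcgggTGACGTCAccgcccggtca
Egr2, serum response element, chr10:67537788-67537817, plus strand: ttcctcagtCCATATATGGgcagcgacgtc
Egr2, serum response element at a second listed start, chr10:67537485-67537514, plus strand: ggatcttctCCTTTTTTGGaaagtctcgga
Fosb, Egr site (GCGNGGGCG), chr7:19310076-19310105, minus strand: tgacgcaagcGCGGGGGCGggtcccggagg
The cyclic AMP response element was in 1.55% of all 32851 listed promoters, the serum response element in 1.47% and the Egr site in 4.7%. The AP-1 site TGANTCA was in 6.75% of promoters and in 0 of the 7 members. These matches are letters in a window and were not tested as sites.

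The members differed from each other in how their level was spread over the T cell classes. UMI counts were summed per pool and class and given as CPM scaled by the trimmed mean of M values (TMM). In such sums, fewer cells with the RNA and less RNA per cell cannot be told apart, and levels are compared here between classes and not between genes. Over the 4 classes the sums held 1284347 UMIs of Junb, 651942 of Jund, 297336 of Ier2, 240790 of Jun, 217922 of Dusp1, 167964 of Fos, 109412 of Fosb and 51230 of Egr1. Egr2, with 1676 UMIs, and Egr3, with 827, were sparse, so statements on them rest on few molecules. The 4 pools each gave every class, so class differences were tested with a term for the pool (edgeR, quasi-likelihood, Benjamini-Hochberg adjustment over all genes tested). Anything that changes all cells of a pool by the same factor drops out. A response to handling that differs between classes stays in the class difference, and its part was not tested. The same holds for the later comparisons within pools. In Cd4 against Cd8 T cells, 7 of 10 members passed the test (5 higher and 2 lower), where 38.2% of 12572 genes did, 20.3% higher and 17.9% lower. In Foxp3 against Cd4 T cells 5 passed (2 higher and 3 lower), against 22.5% of 10464 genes, 13.3% higher and 9.24% lower. In co-receptor-negative against Cd8 T cells 8 passed, all of them higher, against 27.3% of 12921 genes in either direction and 16.6% in that direction. The members' median log2 fold change in these comparisons was 0.15, 0.11 and 0.49, beside medians of 0.01, 0.00 and 0.01 over all genes tested.

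**Figure D1:**
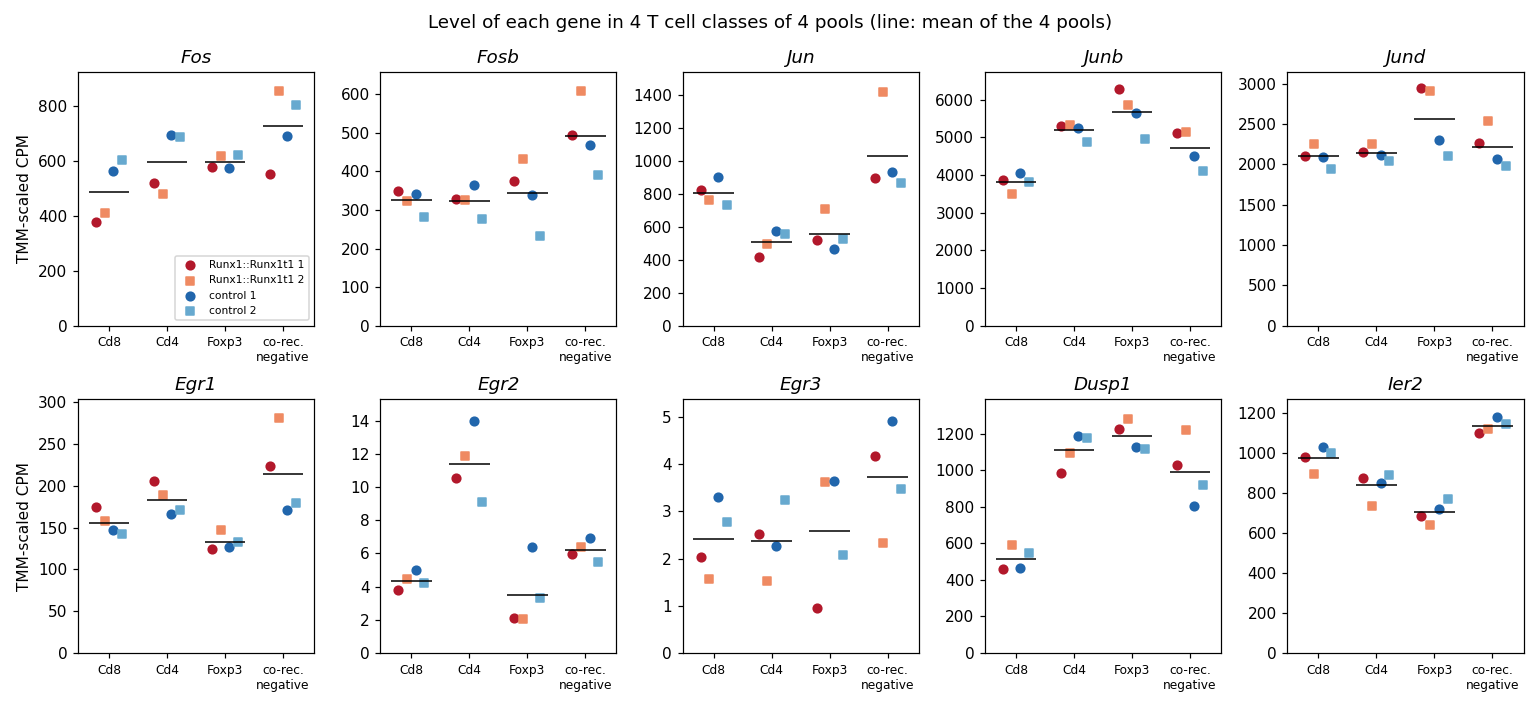
Level of each of the 10 members (TMM-scaled CPM of summed UMIs, y axis of its own for each gene, starting at 0) in the 4 T cell classes. Points are the 4 pools (2 Runx1::Runx1t1, 2 control) and the lines are their mean. Dusp1 is low in Cd8 T cells of every pool (460 to 593 CPM) against 801 CPM or more elsewhere, Ier2 and Jun are low in Foxp3 and Cd4 T cells, and Egr2 is high in Cd4 T cells.

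Of the AP-1 subunits, Jun, the founding member of the family, was lower in Cd4 than in Cd8 T cells. Its level in Cd8 T cells was 821 and 764 CPM in the Runx1::Runx1t1 pools and 901 and 734 CPM in the control pools, and in Cd4 T cells 414 and 495 CPM and 577 and 555 CPM. The ranges of the classes did not overlap, and the difference was −0.65 ± 0.08 (log2 fold change ± SE, adjusted p = 0.000675, edgeR). With classes taken from clusters it was −0.22 with an adjusted p of 0.186, so the size rests on how cells were classed. Foxp3 T cells, at 522, 706, 464 and 525 CPM, did not pass a test against Cd4 T cells (log2 fold change 0.15 ± 0.11, adjusted p = 0.412), while after thinning the difference was 0.35 and passed (adjusted p = 0.00536). The co-receptor-negative T cells stood at 895 and 1416 CPM in the Runx1::Runx1t1 pools and 933 and 868 CPM in the controls, with Runx1::Runx1t1 pool 2 above the others, and did not pass a test against Cd8 T cells (0.35 ± 0.13, adjusted p = 0.104).

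Junb, a Jun family member that can hold back Jun while acting as an activator in helper T cells, followed another order. Cd8 T cells had the lowest levels, 3872, 3495, 4062 and 3808 CPM in Runx1::Runx1t1 pools 1 and 2 and control pools 1 and 2. Cd4 T cells stood at 5290, 5322, 5248 and 4888 CPM and Foxp3 T cells at 6278, 5869, 5650 and 4947 CPM in the same order of pools. Every Cd4 and Foxp3 sum was above every Cd8 sum. Cd4 T cells exceeded Cd8 T cells by 0.46 ± 0.06 on the log2 scale (adjusted p = 0.000498, edgeR), with a passing test in 12 of 12 alternative settings. Foxp3 T cells exceeded Cd4 T cells by a further 0.16 ± 0.04 (adjusted p = 0.0188), a call lost without Runx1::Runx1t1 pool 1 (0.10, adjusted p = 0.206) or pool 2 (0.15, adjusted p = 0.0879). Co-receptor-negative T cells, at 5105, 5135, 4505 and 4115 CPM, were above Cd8 T cells by 0.33 ± 0.08 (adjusted p = 0.0243), which did not pass without Runx1::Runx1t1 pool 1 (0.29, adjusted p = 0.111).

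Jund, the Jun family member that is usually present without stimulation, varied least. It was at 1948 to 2254 CPM in Cd8 T cells and 2048 to 2248 CPM in Cd4 T cells, and these did not differ by the test (log2 fold change 0.04 ± 0.04, adjusted p = 0.478). Foxp3 T cells were at 2948 and 2916 CPM in the Runx1::Runx1t1 pools and 2300 and 2101 CPM in the control pools. Their difference from Cd4 T cells, 0.27 ± 0.06 (adjusted p = 0.0134, edgeR), rested on the Runx1::Runx1t1 pools, since it was 0.19 (adjusted p = 0.105) without pool 1 and 0.23 (adjusted p = 0.0667) without pool 2.

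Fos, the partner of Jun in the classical AP-1 dimer, was lowest in Cd8 T cells. There it measured 377 and 411 CPM in the Runx1::Runx1t1 pools and 564 and 604 CPM in the control pools, and in Cd4 T cells 519 and 480 CPM and 695 and 687 CPM. Within each pool the Cd4 sum was above the Cd8 sum, while across pools the classes overlapped. The difference was 0.31 ± 0.05 (adjusted p = 0.00303, edgeR). Foxp3 T cells held a narrow range of 573 to 621 CPM. Co-receptor-negative T cells, at 554, 857, 693 and 805 CPM, were above Cd8 T cells by 0.60 ± 0.12 (adjusted p = 0.0127), and by 0.61 with an adjusted p of 0.0656 without Runx1::Runx1t1 pool 1. Fosb, a Fos relative with a long-lived spliced form, stood at 282 to 349 CPM in Cd8, 277 to 363 CPM in Cd4 and 233 to 432 CPM in Foxp3 T cells, with no call between them, and was higher in co-receptor-negative T cells, at 494, 607, 469 and 390 CPM. The last exceeded Cd8 T cells by 0.60 ± 0.08 (adjusted p = 0.00325), with a passing test in 12 of 12 alternatives.

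Among the Egr genes, Egr2 had the widest difference between classes. In Cd4 T cells it was at 10.6 and 11.9 CPM in the Runx1::Runx1t1 pools and 14 and 9.1 CPM in the control pools, from 42 to 149 UMIs per sum. In Cd8 T cells it was at 3.8 to 5.0 CPM and in Foxp3 T cells at 2.0 to 6.4 CPM, the latter from 8 to 14 UMIs per sum. No Cd4 sum overlapped a Cd8 or Foxp3 sum. Cd4 T cells were 1.40 ± 0.12 higher than Cd8 T cells (adjusted p = 0.00011, edgeR), and Foxp3 T cells 1.86 ± 0.26 lower than Cd4 T cells (adjusted p = 0.000712), each with a passing test in 12 of 12 alternatives. Egr1, the most responsive of the family, moved the same way in smaller steps over Cd8, Cd4 and Foxp3 T cells. Its highest mean level was in co-receptor-negative T cells, while that of Egr2 was in Cd4 T cells. Egr1 was at 143 to 175 CPM in Cd8 T cells, 167 to 205 CPM in Cd4 T cells, 124 to 147 CPM in Foxp3 T cells and 171 to 281 CPM in co-receptor-negative T cells. Cd4 T cells were above Cd8 T cells by 0.25 ± 0.04 (adjusted p = 0.00143), or 0.17 after thinning (adjusted p = 0.129), and Foxp3 T cells fell by 0.44 ± 0.07 against Cd4 T cells (adjusted p = 0.00214). Egr3, at 1.0 to 4.9 CPM in every sum, differed by the test in co-receptor-negative against Cd8 T cells alone (0.65 ± 0.16, adjusted p = 0.0258). That call was lost without Runx1::Runx1t1 pool 1 (0.51, adjusted p = 0.093), without control pool 1 (0.66, adjusted p = 0.0898) and without control pool 2 (0.75, adjusted p = 0.0519).

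Dusp1, the MAP kinase phosphatase, separated Cd8 T cells from all other classes. It was at 460, 593, 462 and 544 CPM in Cd8 T cells of Runx1::Runx1t1 pools 1 and 2 and control pools 1 and 2, and at 984, 1093, 1188 and 1174 CPM in Cd4 T cells. In Foxp3 T cells it was at 1223, 1281, 1127 and 1115 CPM, and in co-receptor-negative T cells at 1028, 1220, 801 and 918 CPM. The highest Cd8 sum was below the lowest sum of any other class. Cd4 T cells were 1.13 ± 0.08 above Cd8 T cells on the log2 scale (adjusted p = 3.53e-05, edgeR), a 2.19-fold difference, and co-receptor-negative T cells 0.96 ± 0.07 above them (adjusted p = 0.000634), and both passed in 12 of 12 alternatives. Ier2 ran in another direction, at 893 to 1027 CPM in Cd8, 735 to 888 CPM in Cd4, 641 to 770 CPM in Foxp3 and 1096 to 1180 CPM in co-receptor-negative T cells. Foxp3 T cells were 0.22 ± 0.05 lower than Cd4 T cells (adjusted p = 0.00703), and co-receptor-negative T cells 0.24 ± 0.04 higher than Cd8 T cells (adjusted p = 0.00666). Ier2 was lower in Cd4 than in Cd8 T cells by 0.20 ± 0.05 (adjusted p = 0.00917), and with classes from clusters the difference was −0.04 (adjusted p = 0.705).

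Markers of other cells stood beside the co-receptor-negative class. Its summed natural killer markers were 489 to 1219 CPM against 46 to 234 CPM in Cd8 T cells, and its gamma-delta marker Trdc 81 to 114 CPM against 6 to 16 CPM. Neutrophil markers summed to 2 and 4 CPM in the Runx1::Runx1t1 pools of that class and to 1452 and 332 CPM in the control pools, and progenitor and mast cell markers to 245 and 532 CPM against 10 and 40 CPM. A paired T cell receptor was found in 52.6% of co-receptor-negative, 79.6% of Cd8, 80.7% of Cd4 and 73.6% of Foxp3 T cells. The part of these other cells in the members' higher levels was not tested.

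Counting cells gave the same picture as summing molecules for some members only. To even out depth, each cell was thinned to 2000 UMIs, which left out 929 to 1126 shallower cells per pool. The classes in these shares were still those gated on all UMIs, so class membership kept its dependence on depth. The share of thinned cells with a Dusp1 UMI was 49.4% in Cd8, 71.0% in Cd4, 81.5% in Foxp3 and 64.3% in co-receptor-negative T cells, against unthinned shares of 80.9%, 88.0%, 92.1% and 82.2%. For Jun the thinned shares were 56.6%, 43.4%, 48.3% and 63.2% in the same order of classes (unthinned 80.2%, 61.6%, 65.6% and 79.9%). Fos was found in 43.5%, 49.3%, 49.0% and 54.9% of thinned cells, the reverse of the unthinned order between Cd8 (74.1%) and Cd4 T cells (71.0%), whose median depths were 7046 and 5172 UMIs. Egr2 was found in 0.83% of thinned Cd8 T cells and 2.27% of thinned Cd4 T cells (unthinned 2.51% and 4.63%). Egr1 departed from its sums: over all pools it was found in 27.5% of thinned Cd4 and 25.5% of thinned co-receptor-negative T cells, the reverse of their order in CPM. A thinned cell held UMIs of a median of 5 of the 10 members, and at least 5 were found in 57.0% of Cd8, 63.6% of Cd4, 66.6% of Foxp3 and 73.9% of co-receptor-negative T cells. Thinned cells with no member at all made up 0.058% of Cd8 and 0.052% of co-receptor-negative T cells. Nearly every cell of every class thus held a UMI of at least 1 member, and no class at hand should lack these genes, so a background share from free RNA could not be given.

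T cells with a UMI of Pdcd1, which encodes the inhibitory receptor PD-1, were compared with those without one in the same class and pool. The study asks which marrow T cells react to the leukaemia, and PD-1 marks cells that have met antigen. Of the Cd8 T cells, 591 and 2143 cells of the Runx1::Runx1t1 pools and 109 and 113 cells of the control pools had a Pdcd1 UMI, together 2956 with a median of 6040 UMIs against 7209 in the 23456 others. In Cd8 T cells 6 of 10 members passed the test, all lower in cells with a Pdcd1 UMI, where 23.1% of 12200 genes passed in either direction and 12.2% were lower. In Cd4 T cells 4 of the 9 members tested were lower (12.7% of 10075 genes passed, 6.9% lower), in Foxp3 T cells 2 of 8 (4.08% of 8361 genes, 2.34% lower) and in co-receptor-negative T cells 4 of 10 (8.42% of 10447 genes, 3.95% lower). Egr3 in Cd4 T cells and Egr2 and Egr3 in Foxp3 T cells had too few counts to be tested. No member was higher by the test in any class. The members' median log2 fold change was −0.39, −0.31, −0.20 and −0.28 in Cd8, Cd4, Foxp3 and co-receptor-negative T cells, beside −0.01, 0.00, 0.01 and −0.01 over all genes tested.

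**Figure D2:**
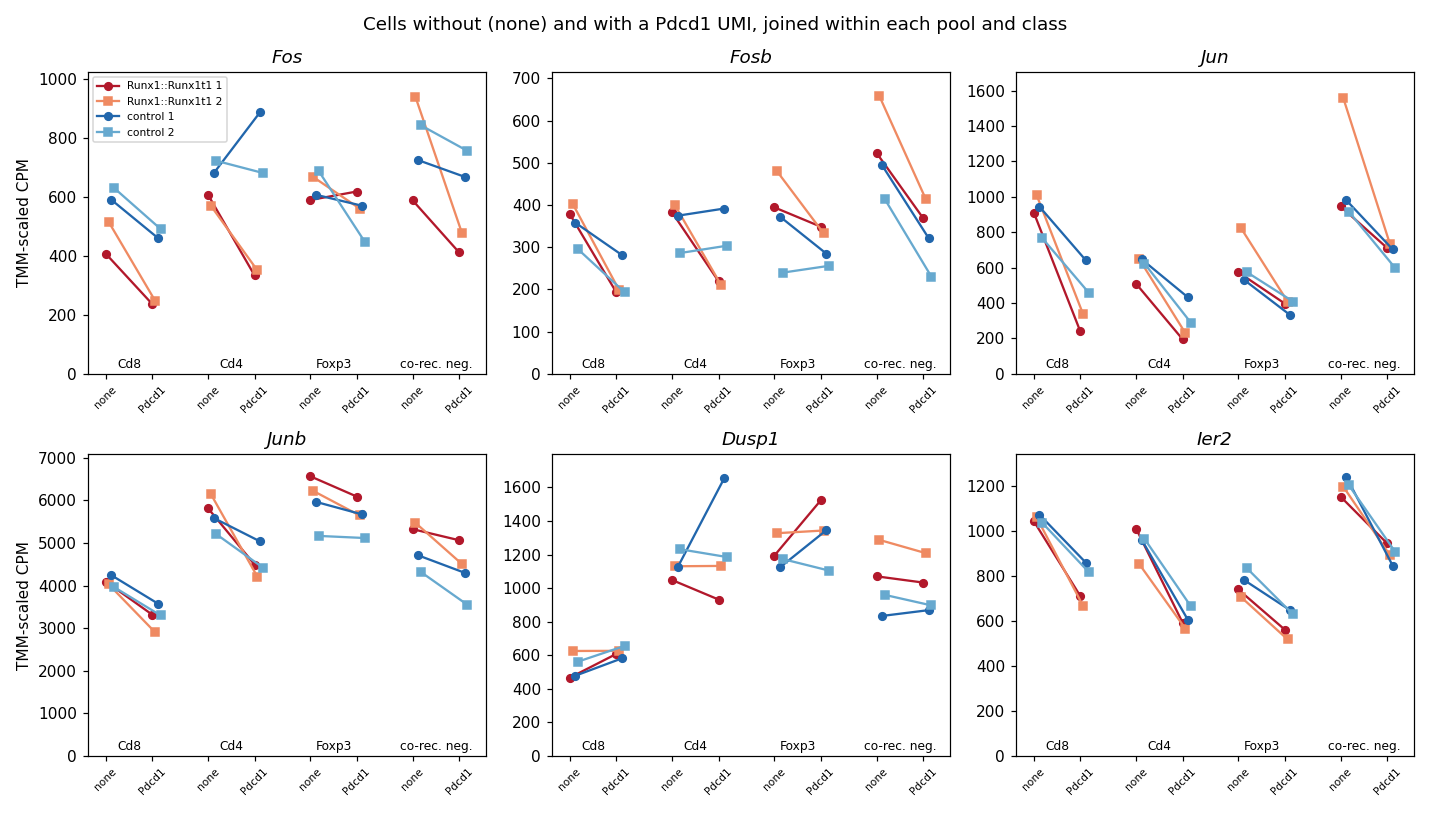
Level of Fos, Fosb, Jun, Junb, Dusp1 and Ier2 (TMM-scaled CPM, y axis of its own for each gene, starting at 0) in T cells without and with a Pdcd1 UMI, each line joining the sums of 1 pool in 1 class. Jun, Ier2 and Junb lie lower with a Pdcd1 UMI in 4 of 4 pools of all 4 classes, while Dusp1 has no common direction.

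Jun and Ier2 were lower with a Pdcd1 UMI in all 4 classes by the test. In Cd8 T cells with a Pdcd1 UMI, Jun stood at 239 and 337 CPM in the Runx1::Runx1t1 pools and 641 and 459 CPM in the control pools, and in those without at 911 and 1010 CPM and 945 and 767 CPM. The sums did not overlap, and the gap was wider in the Runx1::Runx1t1 pools. The difference was −1.21 ± 0.21 (adjusted p = 0.00615, edgeR) and kept its call in 12 of 12 alternatives, between −1.65 and −0.96. Cd4 T cells gave 195, 230, 431 and 288 CPM against 509, 651, 647 and 623 CPM, a difference of −1.14 ± 0.13 (adjusted p = 0.000441). In Foxp3 T cells Jun was at 397, 408, 331 and 408 CPM against 574, 822, 531 and 575 CPM (−0.66 ± 0.08, adjusted p = 3.41e-05), and in co-receptor-negative T cells at 711, 735, 703 and 596 CPM against 946, 1557, 982 and 916 CPM (−0.62 ± 0.10, adjusted p = 0.00152). The Foxp3 call was lost when cells were thinned and gated again (−0.23, adjusted p = 0.455). Markers of other cells also differed by Pdcd1 in the co-receptor-negative class. With and without a Pdcd1 UMI, neutrophil markers summed to 63.9 and 1491 CPM in control pool 1, 17.02 and 342 CPM in control pool 2, and 1.12 to 1.38 and 1.66 to 3.86 CPM in the Runx1::Runx1t1 pools. Natural killer markers were at 180 to 423 CPM with and 516 to 1241 CPM without a Pdcd1 UMI over the 4 pools, and progenitor and mast cell markers at 229 and 246 CPM in Runx1::Runx1t1 pool 1 and 118 and 568 CPM in pool 2. Their part in the lower levels of the members in that class was not tested.

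Ier2 in Cd8 T cells was at 711, 667, 860 and 818 CPM with a Pdcd1 UMI and at 1044, 1061, 1073 and 1037 CPM without. The sums without a Pdcd1 UMI lay within a narrow band, above all the others. Its difference was −0.46 ± 0.08 (adjusted p = 0.00518, edgeR) in Cd8, −0.63 ± 0.06 (adjusted p = 0.000182) in Cd4, −0.34 ± 0.06 (adjusted p = 0.000821) in Foxp3 and −0.39 ± 0.06 (adjusted p = 0.00146) in co-receptor-negative T cells. The calls in Cd8, Cd4 and co-receptor-negative T cells held in every alternative run, and that in Foxp3 T cells was lost after thinning (−0.26, adjusted p = 0.326).

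The Fos family fell in fewer classes. Fos in Cd8 T cells was at 236 and 248 CPM in the Runx1::Runx1t1 pools and 460 and 490 CPM in the controls with a Pdcd1 UMI, against 406 and 515 CPM and 589 and 629 CPM without (−0.64 ± 0.12, adjusted p = 0.00774, edgeR). Its direction was not shared by the pools in Cd4 T cells: Fos was lower with a Pdcd1 UMI in 3 of 4 pools and higher in control pool 1, at 887 against 679 CPM, and the test was not passed (−0.31 ± 0.17, adjusted p = 0.279). Without that pool the difference was −0.56 and passed. Fosb was lower in Cd8 T cells, at 193, 198, 282 and 193 CPM against 378, 403, 358 and 295 CPM (−0.74 ± 0.11, adjusted p = 0.00362), and in co-receptor-negative T cells, at 369, 414, 322 and 230 CPM against 523, 658, 494 and 413 CPM (−0.63 ± 0.07, adjusted p = 0.000268).

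Junb and Jund moved by less. Junb in Cd8 T cells was at 3315, 2903, 3576 and 3297 CPM with a Pdcd1 UMI and at 4091, 4027, 4241 and 3961 CPM without (−0.31 ± 0.07, adjusted p = 0.013, edgeR), a call lost without Runx1::Runx1t1 pool 1 (−0.32, adjusted p = 0.104). Junb in Cd4 T cells fell by 0.31 ± 0.06 (adjusted p = 0.0106), with an adjusted p of 0.0594 without Runx1::Runx1t1 pool 1 (−0.30) and of 0.0522 without pool 2 (−0.24). Jund was lower in Cd8 T cells by 0.23 ± 0.07 (adjusted p = 0.0488), and 6 of 12 alternatives kept that call. Without Runx1::Runx1t1 pool 1, control pool 1 or control pool 2 it was −0.21 in each case, with adjusted p from 0.103 to 0.284. Egr1 did not move with Pdcd1 in Cd8 T cells by the test (−0.04 ± 0.08, adjusted p = 0.747). It was lower in Cd4 T cells (−0.39 ± 0.09, adjusted p = 0.0239), at 159, 170, 163 and 114 CPM against 231, 209, 176 and 188 CPM, and in co-receptor-negative T cells (−0.62 ± 0.14, adjusted p = 0.0139), at 203, 135, 132 and 109 CPM against 234, 310, 179 and 189 CPM. The Egr1 call in Cd4 T cells was lost without Runx1::Runx1t1 pool 1 (−0.33, adjusted p = 0.137), without pool 2 (−0.43, adjusted p = 0.0693) and without control pool 2 (−0.33, adjusted p = 0.0761), and that in co-receptor-negative T cells without Runx1::Runx1t1 pool 2 (−0.44, adjusted p = 0.0673). After thinning they were −0.21 (adjusted p = 0.544) and −0.24 (adjusted p = 0.488), and 5 and 8 of 11 alternatives kept the call. Dusp1 in Cd8 T cells was at 608, 626, 581 and 656 CPM with a Pdcd1 UMI and 466, 625, 478 and 562 CPM without, and its difference of 0.23 ± 0.08 did not pass (adjusted p = 0.0685).

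The same cells differed in other genes of the pathway. Of 27 other immediate early genes, 3 were higher and 13 lower in Cd8 T cells with a Pdcd1 UMI. Rhob, encoding a small GTPase, fell by 1.21 ± 0.12 and Tsc22d3, the glucocorticoid-induced leucine zipper, by 1.11 ± 0.12, while Nr4a2, an orphan nuclear receptor, rose by 1.45 ± 0.18 and Ier5l by 2.06 ± 0.17. The counts were 2 higher and 12 lower in Cd4, 3 and 6 in Foxp3, with 26 tested, and 2 and 10 in co-receptor-negative T cells. Of 11 other AP-1 genes tested in Cd8 T cells, 3 were higher and 5 lower. Maf rose by 2.83 ± 0.22 and Jdp2, which dimerises with Jun, by 1.48 ± 0.17, and Maff fell by 1.67 ± 0.13 and Bach2, a repressor at AP-1 sites that is known for naive and memory cells, by 1.13 ± 0.09. Heat shock genes, which also respond to cell handling, had 0 higher and 4 lower of 11 in Cd8 T cells, with Dnajb4 at −0.81 ± 0.11 and Hspe1 at −0.72 ± 0.13. Of 6 other MAP kinase phosphatases 2 rose, Dusp4 by 0.92 ± 0.12 and Dusp6 by 0.53 ± 0.13, and 2 fell, Dusp10 by 0.58 ± 0.11 and Dusp16 by 1.03 ± 0.21. Of the 10 serum response and kinase inputs 2 rose and 2 fell, and of 3 other genes of the Egr pathway none passed in these cells. These lists were written with earlier results of these data known.

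Cd8 T cells of expanded clonotypes, those with at least 5 cells sharing both receptor chains in a pool, were compared with cells whose clonotype was seen once. They numbered 1006 and 2199 cells in the Runx1::Runx1t1 pools and 136 and 380 in the controls, against 4067 and 3009 and 4307 and 4673 single cells, and the medians were 5686 and 7673 UMIs per cell. The largest clonotype of Runx1::Runx1t1 pool 2 held 1084 of its Cd8 T cells. By the test 3 of 10 members differed, 1 higher and 2 lower, where 24.5% of 11829 genes did, 11.8% higher and 12.7% lower. Jun was at 247, 310, 326 and 528 CPM in expanded and 863, 963, 861 and 681 CPM in single cells (−1.30 ± 0.23, adjusted p = 0.00961, edgeR), with no overlap. Fos was at 258, 223, 352 and 454 CPM against 352, 475, 516 and 561 CPM (−0.59 ± 0.13, adjusted p = 0.0218). Egr1 went the other way, at 215, 158, 161 and 152 CPM against 146, 138, 136 and 126 CPM (0.33 ± 0.09, adjusted p = 0.0323), higher in 4 of 4 pools. Without Runx1::Runx1t1 pool 1 none of the 3 passed, with Jun at −1.12 (adjusted p = 0.055), Fos at −0.64 (adjusted p = 0.0816) and Egr1 at 0.25 (adjusted p = 0.19). Without control pool 1 only Jun passed, with Fos at −0.61 (adjusted p = 0.0704) and Egr1 at 0.35 (adjusted p = 0.077), and without control pool 2 Egr1 was at 0.33 (adjusted p = 0.0715). Without the largest clonotype of each pool 5 members passed. That setting removed 1084 Cd8 T cells of Runx1::Runx1t1 pool 2, 3 of control pool 2 and 0 of the other pools. The share of all genes called in it is not given. Expanded cells and cells with a Pdcd1 UMI share cells, so these results are not independent of each other.

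Runx1::Runx1t1 and control pools were then compared within each class, with 2 pools a group. In Cd8 T cells 0 of 10 members passed edgeR's test, 3 had an unadjusted p under 0.05 and 0.113% of 13329 genes passed, and DESeq2 called 1 member. In Cd4 T cells 1 member passed and 3 had an unadjusted p under 0.05 (2.89% of 11264 genes passed, 1.08% lower), in Foxp3 T cells 1 passed and 3 did so (3.23% of 10050, 1.84% higher), and in co-receptor-negative T cells 0 passed and 5 did so (3.47% of 12623), where DESeq2 called 3. All these shares of genes are edgeR's at an adjusted p under 0.05. Shares of all genes at an unadjusted p or under DESeq2 are not given, so those member counts cannot be set against a background. The members' median log2 fold change was −0.06, −0.09, 0.08 and 0.25 in the 4 classes, beside −0.01 in each over all genes.

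**Figure D3:**
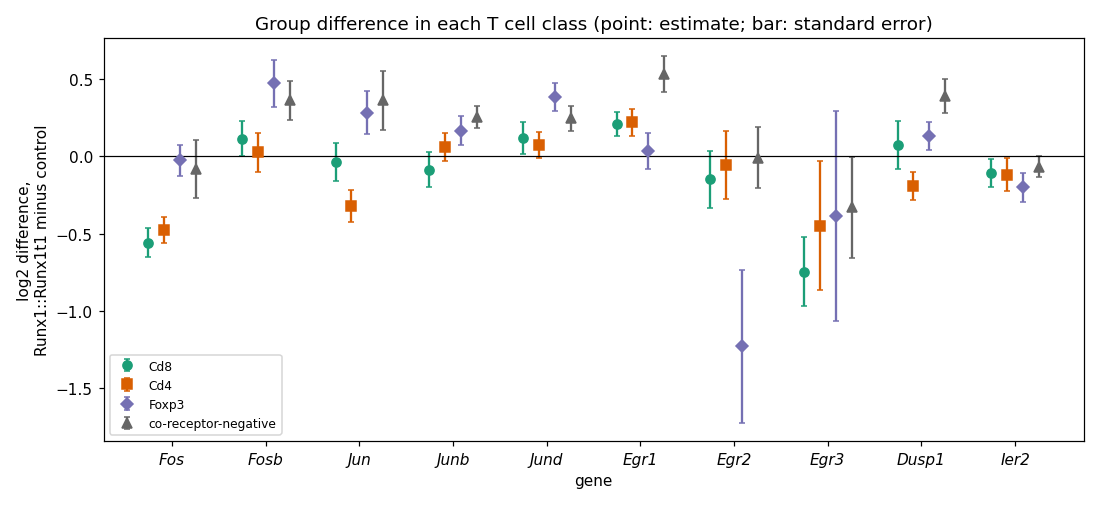
Log2 fold change between Runx1::Runx1t1 and control pools (y axis) for the 10 members along the x axis, with 1 point per class and bars of 1 SE from the edgeR fit. Fos lies at −0.56 in Cd8 and −0.48 in Cd4 T cells and near 0 in the other classes, and Egr2 and Egr3 have the widest bars.

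Fos was the member that fell in Cd4 T cells of the Runx1::Runx1t1 group. It was at 499 ± 26.9 CPM in the Runx1::Runx1t1 pools and 691 ± 5.9 CPM in the controls (mean ± SD, n = 2), a difference of −0.48 ± 0.08 (adjusted p = 0.0342, edgeR), and the pools of the groups did not overlap. The call was lost without Runx1::Runx1t1 pool 2 (−0.42, adjusted p = 0.142) and with classes from clusters (−0.26, adjusted p = 0.246). In Cd8 T cells Fos was at 394 ± 24.3 and 584 ± 28.8 CPM (mean ± SD, n = 2), again without overlap, and its difference of −0.56 ± 0.09 did not pass (adjusted p = 0.08) but did under DESeq2 (−0.55). The share of all genes whose pools separate by group in this way is not known for Cd4 or Cd8 T cells. In Foxp3 T cells Fos was at 599 ± 30.2 and 597 ± 34.2 CPM and in co-receptor-negative T cells at 706 ± 214 and 749 ± 79.2 CPM. Jund was higher in Foxp3 T cells of the Runx1::Runx1t1 group, at 2932 ± 22.5 against 2200 ± 141 CPM (0.38 ± 0.09, adjusted p = 0.0438). That call did not pass without Runx1::Runx1t1 pool 1 (0.39, adjusted p = 0.0982), without pool 2 (0.38, adjusted p = 0.068) or without control pool 2 (0.32, adjusted p = 0.184). Markers of other cells differed between the groups in the Foxp3 class too. Its summed progenitor and mast cell markers were 119.5 and 214.8 CPM in the Runx1::Runx1t1 pools and 3.57 and 3.20 CPM in the controls, natural killer markers 32.7 and 16.4 CPM against 204 and 222 CPM, monocyte and macrophage markers 407 and 395 CPM against 841 and 726 CPM, and neutrophil markers 2.62 and 2.24 CPM against 60.2 and 31.6 CPM. Their part in the Jund value was not tested. Egr1 in co-receptor-negative T cells was at 223 and 281 CPM in the Runx1::Runx1t1 pools and 171 and 179 CPM in the controls (0.53 ± 0.11, adjusted p = 0.0574). Dusp1 (0.39 ± 0.11, adjusted p = 0.108), Junb (0.25 ± 0.07, adjusted p = 0.119) and Jund (0.25 ± 0.08, adjusted p = 0.157) had positive values there that did not pass. The neutrophil and progenitor markers of that class differed between the groups as given above, and their part in these values was not tested.

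Whether a class difference itself differed between the groups was tested by an interaction term. For Cd4 against Cd8 T cells 0 of 10 members passed, with 0 at an unadjusted p under 0.05 and 0 under DESeq2 (0.286% of 12572 genes passed), and for co-receptor-negative against Cd8 T cells 0 passed, with 3 at an unadjusted p under 0.05 and 1 under DESeq2 (0.0155% of 12921). The shares of genes are again edgeR's at an adjusted p, and the unadjusted and DESeq2 counts have no such share beside them. For Foxp3 against Cd4 T cells 5 members passed, all in 1 direction, where 2.64% of 10464 genes did and 1.16% were positive. The difference between Foxp3 and Cd4 T cells was greater in the Runx1::Runx1t1 than in the control pools for Jun by 0.61 ± 0.09 (adjusted p = 0.00253, edgeR), Fos by 0.46 ± 0.09 (adjusted p = 0.0111), Fosb by 0.46 ± 0.10 (adjusted p = 0.0214), Dusp1 by 0.34 ± 0.06 (adjusted p = 0.0105) and Jund by 0.33 ± 0.06 (adjusted p = 0.01). Jun gives an example: Foxp3 T cells stood above Cd4 T cells in the Runx1::Runx1t1 pools, at 522 against 414 CPM and 706 against 495 CPM, and below them in the control pools, at 464 against 577 CPM and 525 against 555 CPM. Progenitor and mast cell markers, given above for Foxp3 T cells, summed to 84.2 and 42.6 CPM in Cd4 T cells of the Runx1::Runx1t1 pools and to 9.73 and 17.9 CPM in those of the controls, and natural killer markers to 110 and 40.8 CPM against 282 and 245 CPM, and their part in the interaction was not tested. With classes from clusters none of the 5 passed, and their values were 0.06 to 0.23. Leaving out single pools kept 3 or 4 of the 5: without Runx1::Runx1t1 pool 1 Dusp1 (0.31, adjusted p = 0.0885) and Jund (0.31, adjusted p = 0.0869) did not pass, without pool 2 Fos (0.34, adjusted p = 0.068) and Fosb (0.33, adjusted p = 0.124), without control pool 1 Fos (0.39, adjusted p = 0.0719) and without control pool 2 Fosb (0.41, adjusted p = 0.137). Of the 27 other immediate early genes 10 were positive and 2 negative in the same test, with Klf4 at 0.81 ± 0.10, Zfp36l1 at 0.51 ± 0.08, Nfkbia at 0.33 ± 0.06 and Nr4a2 at −0.80 ± 0.14.

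The Pdcd1 difference in Cd8 T cells also varied with the group. By the interaction term 1 of 10 members passed and 5 had an unadjusted p under 0.05 (2.13% of 12200 genes passed, 1.3% in that direction). These shares are at an adjusted p, and no share of genes at an unadjusted p is given. Jun fell with Pdcd1 by 1.07 ± 0.14 more, on the log2 scale, in the Runx1::Runx1t1 than in the control pools (adjusted p = 0.0126, edgeR). The values for Fos (−0.53 ± 0.12, adjusted p = 0.0568) and Fosb (−0.49 ± 0.12, adjusted p = 0.078) did not pass. Jun lost its call without control pool 1 (−0.98, adjusted p = 0.231), without control pool 2 (−1.15, adjusted p = 0.166) and after thinning (−0.20, adjusted p = 0.913). The control pools held 109 and 113 Cd8 T cells with a Pdcd1 UMI against 591 and 2143 in the others, and the thinned cells were gated again and so held fewer. Of the other immediate early genes 9 of 27 were negative and 0 positive, with Klf4 at −1.65 ± 0.21, Nr4a1, an early reporter of receptor signals, at −1.58 ± 0.19, Myc at −1.45 ± 0.18 and Zfp36l1 at −0.95 ± 0.11. Batf, an AP-1 factor of exhausted and effector cells, was at 1.09 ± 0.15.

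**Figure D4:**
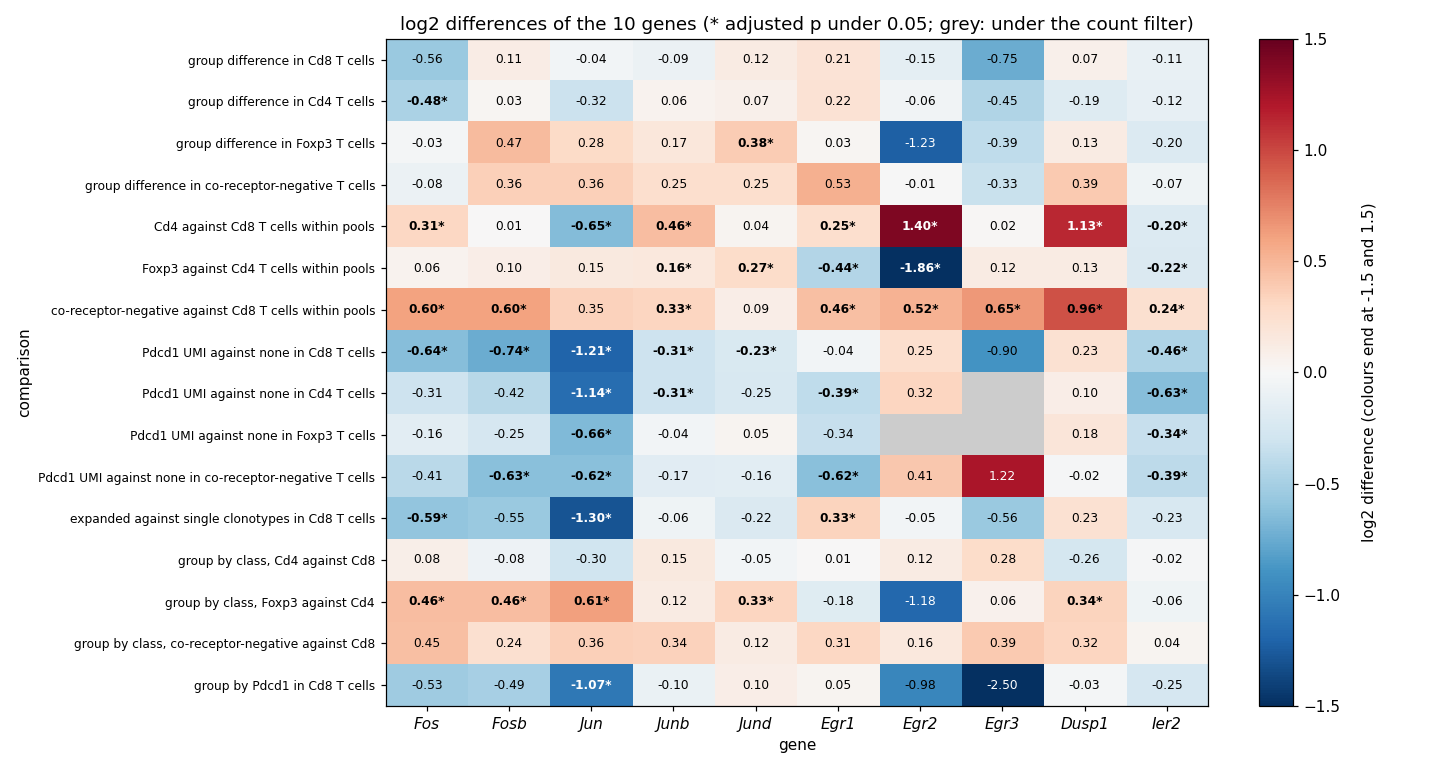
Log2 difference of each of the 10 members (columns) in each of the 16 comparisons (rows), from the edgeR fits, in colour and as a printed value, with a star at an adjusted p under 0.05 and grey where a member had too few counts. Jun is starred in all 4 Pdcd1 rows, at −1.21, −1.14, −0.66 and −0.62, and 8 members are starred in the row of co-receptor-negative against Cd8 T cells.

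Differences between pools that all their cells share were described next. For this, the spread of each member's log2 level over the 16 sums was divided into a share between pools, a share between classes and a remainder. The pool share covers anything that differs from pool to pool, so handling, the mice and the group cannot be told apart in it. A handling response alike in all 4 pools adds nothing to this share. One that differed between classes falls in the class share or the remainder, so these shares cannot set handling apart. It was 43.7% for Jund, 31.8% for Fosb, 28.4% for Fos, 23.8% for Egr3, 18.2% for Egr1, 10.7% for Egr2, 9.34% for Junb, 6.96% for Ier2, 6.65% for Jun and 3.68% for Dusp1. Their median was 14.5%, beside a median of 17.4% over 12921 genes, and the members' median share between classes was 72.9%, beside 48.4%. These are descriptions with no test. The median remainder over all genes was 25.1%, and these genes were not matched to the members for expression level. The class share was highest for Dusp1 (90.9%) and Ier2 (90.3%) and lowest for Egr3 (22.3%), whose remainder was 53.9%. For Jun, Junb and Egr2 it was 78.5%, 81.3% and 78.1%. The 4 classes stood in 1 order in all 4 pools for Junb and Ier2, while for Jun, Dusp1 and Egr2 the order changed between pools, as the Jun values of Foxp3 and Cd4 T cells above show. The order of the members by pool share was not firm. Without control pool 2 the pool share of Jund was 25.3%, of Fosb 3.55%, of Fos 18.5% and of Junb 1.49%. Without Runx1::Runx1t1 pool 1 that of Fos was 12.8% and of Jund 61%, and without pool 2 that of Fos was 49.2%, of Jun 1.6%, of Ier2 1.49% and of Dusp1 0.637%, with Junb at 14.1%. Without control pool 1 it was 0.501% for Egr2 and 11.3% for Egr3. Thinned cells gave 45.2% for Fos, 40.1% for Egr3, 35.2% for Fosb, 28% for Jund, 12.7% for Ier2, 11.3% for Egr1, 10.3% for Jun, 3.12% for Junb and 1.46% for Dusp1.

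**Figure D5:**
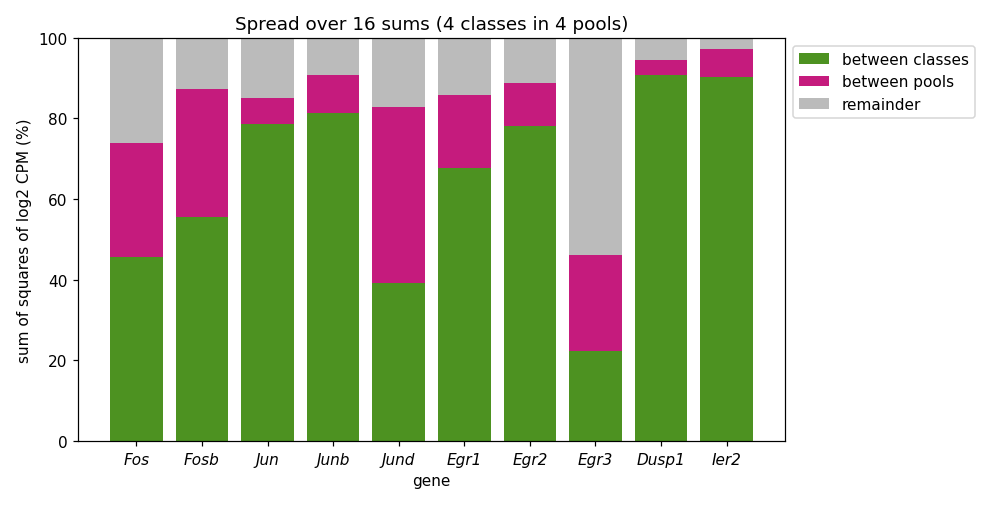
Share of each member's spread over the 16 sums (stacked bars, percent of the sum of squares of log2 CPM, y axis from 0 to 100) that lies between classes, between pools and in the remainder. Dusp1 and Ier2 have 90.9% and 90.3% between classes, and Jund has 43.7% between pools, an order that changes with thinned cells, where Fos has 45.2% and Jund 28%.

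The pool effects had no common direction over the members. For Fos they were −0.24 and −0.05 on the log2 scale in Runx1::Runx1t1 pools 1 and 2 and 0.09 and 0.20 in control pools 1 and 2, for Fosb 0.08, 0.18, 0.05 and −0.31, and for Jund 0.07, 0.14, −0.06 and −0.15. Fos thus ran against Jund. The median over the 10 members was −0.03, 0.08, 0.03 and −0.08. The 11 heat shock genes had a median pool share of 40.0% and median pool effects of −0.02, 0.12, −0.19 and 0.08. Hspa1b, an inducible chaperone named here after its values were seen, moved most with the pool among them, with 87.5% of its spread between pools and effects of −0.83, 1.29, −0.57 and 0.11.

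Myeloid-like cells, 170 and 166 of the Runx1::Runx1t1 pools and 225 and 353 of the control pools, give the members in cells of the same tubes that are not T cells. There Fos was at 3475 and 4944 CPM and at 2507 and 2422 CPM (without TMM scaling), above its level in every T cell sum. Jun was at 5658 and 7245 CPM in the Runx1::Runx1t1 and 1126 and 2078 CPM in the control pools, Egr1 at 1506 and 1567 against 119 and 662 CPM, and Fosb at 1508 and 1834 against 340 and 414 CPM. Junb, Jund, Ier2 and Dusp1 were also higher in both Runx1::Runx1t1 pools than in either control pool, and Egr2 and Egr3 had few UMIs. The share of all genes that separate in this way is not known. No test was made, since the makeup of these few cells differed with the pool. Their progenitor and mast cell markers summed to 8644 and 7311 CPM in the Runx1::Runx1t1 pools and 140 and 690 CPM in the controls, and neutrophil markers to 14, 7939, 36660 and 2021 CPM. The difference in Fos had the other sign in Cd8 and Cd4 T cells.

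Other genes of the pathway also differed between classes. In Cd4 against Cd8 T cells 13 of 27 other immediate early genes were higher and 6 lower, with Gadd45b at 0.88 ± 0.05, Nr4a3 at 0.75 ± 0.04, Klf2, a factor of resting and circulating T cells, at −1.10 ± 0.09 and Myc at −1.79 ± 0.10, while 0 of 11 heat shock genes were higher and 6 lower. Of 6 other MAP kinase phosphatases 4 were higher and 1 lower there, with Dusp4 at 1.46 ± 0.13 and Dusp2 at −0.50 ± 0.05. In Foxp3 against Cd4 T cells 3 phosphatases were higher and 2 lower, with Dusp4 at 1.93 ± 0.07, Dusp5 at 0.33 ± 0.05, Dusp6 at −1.64 ± 0.13 and Dusp2 at −1.25 ± 0.10, and 9 other immediate early genes were higher and 4 lower. Nfkbia, the inhibitor of NF-kappaB, rose by 0.93 ± 0.06 and its relative Nfkbiz by 0.97 ± 0.08. In co-receptor-negative against Cd8 T cells 8 of 12 other AP-1 genes tested were higher and 1 lower, with Atf3, a stress-induced factor, at 1.61 ± 0.11 and Fosl2, a further Fos relative, at 0.57 ± 0.04. Between Runx1::Runx1t1 and control pools 0 genes of any of these lists passed edgeR's test in Cd8 T cells. In co-receptor-negative T cells 6 of 27 other immediate early genes were higher and 0 lower in the Runx1::Runx1t1 group, with Csrnp1 at 0.65 ± 0.09, Tnfaip3 at 0.59 ± 0.08, Gadd45b at 0.50 ± 0.08 and Nr4a1 at 0.43 ± 0.07, and Dusp4 and Dusp10 were higher by 1.09 ± 0.09 and 1.21 ± 0.12. In Cd4 T cells Nab1, a corepressor of Egr proteins, was higher by 0.80 ± 0.10, Batf by 0.76 ± 0.14 and Maf by 0.62 ± 0.11.

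The members' patterns over the 16 sums were compared by Pearson's r of log2 levels, as a description of sums that share libraries. Dusp1 and Junb were most alike of all pairs of members (r = 0.86), Jun and Ier2 came next (0.73), then Fosb and Jun (0.68) and Junb and Jund (0.66), while Junb and Ier2 ran in opposite directions (−0.61). Jun and Junb, which share the AP-1 family, were at −0.44 and Fos and Jun at 0.30. The genes most like Dusp1 over these sums were Cass4 (0.96), Zbtb7b (0.95) and Lipo3 (0.95). Those most like Ier2 were the killer cell lectin-like receptors Klre1 (0.97), Klrk1 (0.96) and Klrc1 (0.96), those most like Egr2 were Evi2a (0.97), Rasa1 (0.91) and Asap1 (0.90), and those most like Jun were Rreb1 (0.89), Bach1 (0.88) and Cnr2 (0.88). For Fos the closest was Aldh2 (0.89), for Fosb Abi3bp (0.88), for Junb 2610204G07Rik (0.96), for Jund Cxcl3 (0.93), for Egr1 Ly6g5b (0.86) and for Egr3 Ifi207 (0.86).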

How the data were processed

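The authors deposited UMI counts per gene and barcode from 10x 5′ libraries made with Cell Ranger 6.1.2 on GRCm38. The annotation release is not given in the sources used here. The 4 T cell receptor tables, whose UMI counts per contig the authors deposited as well, served to define clonotypes only. Barcodes under 200 genes or over 15% of UMIs from mitochondrial genes were dropped, and the 5% with the highest simulated-doublet scores per library were removed. This uniform rule was chosen after the scores were seen, since the automatic threshold marked 0.00687%, 5.04%, 0% and 0.00703%. Cells were gated by UMIs, counts were summed per pool and class with at least 20 cells, and the sums were tested with edgeR 4.0.16 (R 4.3.3: TMM, filterByExpr, quasi-likelihood test, adjusted p under 0.05 over all genes tested). The pool was a block within pools. DESeq2 1.42.0 was an alternative. Clusters came from scanpy 1.11.5. On simulated counts with 200 genes changed 2-fold, edgeR recovered 130 of them with 6 false calls in the Cd8 group comparison (13329 genes), 146 with 4 in the Cd8 Pdcd1 comparison (12200 genes) and 175 with 4 in co-receptor-negative against Cd8 T cells (12921 genes).

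The study describes the mice of both groups as littermates matched for sex. The labels do not say that pools of the same number share a litter or day, so no pairing was assumed. In the group comparisons p-values measure the spread between pools of 2 mice. In the comparisons within pools and the interactions they measure how the difference inside a pool varies from pool to pool. All members are named in each comparison. From each list at most 4 genes per comparison were named, those that passed with the smallest adjusted p, and for each member up to 3 genes with the highest correlation. The members and lists were chosen with earlier results of these data known.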

Additional observations from a re-analysis of the deposited data

Results flagged for a closer look

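A difference between groups in the same contrast, tested by an interaction term in edgeR, drew attention to 6 results. The Foxp3 minus Cd4 difference was greater in Runx1::Runx1t1 than in control pools for Jun (0.61), Fos (0.461), Fosb (0.459), Dusp1 (0.336) and Jund (0.326), on the log2 scale with adjusted p from 0.00253 to 0.0214. The Pdcd1 difference of Jun in Cd8 T cells was lower in the Runx1::Runx1t1 group by an interaction value of −1.07 (adjusted p = 0.0126). No cause of these was tested. With classes from clusters the first 5 did not pass, and after thinning the last did not.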

How the results depend on the processing

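The 47 calls of a member in a comparison had 547 alternative values, of which 461 kept the call and 0 reversed, and 15 calls held in every alternative. Counts of members called moved as follows. The share of all genes called in each setting is not given beside them, so they cannot be set against a background. The range of genes called over the settings is given in the last paragraph. DESeq2 gave 1 for the group difference in Cd8 and 3 in co-receptor-negative T cells, 5 for expanded clonotypes, 1 for the interaction of group with co-receptor-negative against Cd8 and 3 for that with Pdcd1. Without a filter on low counts, which also changes how many genes are tested, the group counts were 1 in Cd8, 2 in Foxp3 and 1 in co-receptor-negative T cells, the Pdcd1 counts 7 in Cd4, 5 in Foxp3 and 7 in co-receptor-negative T cells, and the last-named interactions 1 and 3. Thinning gave 2 for the Foxp3 group difference, 0 for Pdcd1 in Foxp3 T cells, 3 for the interaction with Foxp3 against Cd4 and 0 for that with Pdcd1. Classes from clusters gave 0 for the group difference in Cd4 and in Foxp3, 1 in co-receptor-negative T cells and 0 for the interaction with Foxp3 against Cd4. Stricter cell filters gave 0 for the Foxp3 group difference, keeping doublets gave 2 for the interaction with Pdcd1, and leaving out the largest clonotypes gave 5 for expanded cells. Those clonotypes held Cd8 T cells almost only in Runx1::Runx1t1 pool 2. Without the pool block the counts were 4, 2 and 5 for Cd4 against Cd8, Foxp3 against Cd4 and co-receptor-negative against Cd8, and 0 and 2 for Pdcd1 in Foxp3 and co-receptor-negative T cells. Leaving out 1 pool gave 0 to 1, 0 to 1, 0 to 2 and 0 to 6 for the group difference in Cd8, Cd4, Foxp3 and co-receptor-negative T cells. It gave 3 to 5 for Foxp3 against Cd4, 3 to 9 for co-receptor-negative against Cd8, 2 to 7 and 2 to 4 for Pdcd1 in Cd4 and Foxp3 T cells, and 0 to 3 for expanded clonotypes. The interactions ranged over 0 to 1, 3 to 4 and 0 to 7 for the 3 class pairs and 0 to 3 for Pdcd1. The median pool share ranged from 9.1% to 15.6%, lowest without control pool 2. The causes of these moves were not tested.

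The replicate block, which pairs pools by number, gave 1 member called in Cd8, 1 in Cd4, 1 in Foxp3 and 3 in co-receptor-negative T cells. The share of all genes called with the block is not given. Same-numbered pools correlated in their deviations at 0.15, −0.0111, 0.0405 and 0.273 in these classes, with 2 pairs. The members called with the block were Fos in Cd8 (−0.56), Fos in Cd4, Fosb in Foxp3 (0.483) in place of Jund (0.385, adjusted p = 0.0685), and Dusp1 (0.388), Egr1 (0.523) and Fosb (0.358) in co-receptor-negative T cells.

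The values that reversed belonged to members not called as reported, and 1 of them passed the test in the opposite direction, Fos in Foxp3 against Cd4 T cells with classes from clusters (−0.181, adjusted p = 0.0237, edgeR). One cell per clonotype gave 0.23 for Jun and 0.00378 for Ier2 in the Cd8 group difference. Thinning gave −0.0499 for Fosb in Cd4, −0.188 for Egr1 in Foxp3, and 0.0651 for Egr2 and −0.0809 for Jun in co-receptor-negative T cells for the group difference. It gave 0.0376, 0.215 and 0.481 for Fosb, Fos and Egr1 with Pdcd1 in Foxp3 T cells, and −0.0793 for Egr1 in the interaction with co-receptor-negative against Cd8. Classes from clusters gave group differences of 0.153, 0.0463 and 0.135 for Egr2, Jun and Ier2 in Cd4 and −0.173 for Egr1 in Foxp3 T cells, a class difference of −0.129 for Jun in Foxp3 against Cd4, and interactions of 0.226 for Jun (Cd4 against Cd8) and −0.041 for Jund (co-receptor-negative against Cd8). Fosb in Cd4 against Cd8 was −0.0154 without a filter, −0.00103 with stricter cell filters and −0.00365 with doublets kept. Leaving out 1 pool moved the group difference in Cd8 T cells over −0.0206 to 0.256 for Fosb, −0.131 to 0.263 for Dusp1 and −0.179 to 0.116 for Jun, in Cd4 over −0.151 to 0.232 for Fosb and −0.318 to 0.295 for Egr2, and in Foxp3 over −0.0879 to 0.0356 for Fos, −0.101 to 0.161 for Egr1 and −0.739 to 0.057 for Egr3. In co-receptor-negative T cells it ran over −0.434 to 0.196 for Fos, −0.171 to 0.172 for Egr2 and −0.00796 to 0.654 for Jun. Fosb in Cd4 against Cd8 ran over −0.022 to 0.0356, Fos in Foxp3 against Cd4 over −0.0617 to 0.154, and Jun in the interaction with co-receptor-negative against Cd8 over −0.00499 to 0.732. Sums with few molecules limit Egr2 and Egr3, and 2 pools a group limit each group comparison.

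Over the alternatives the number of all genes called ranged from 3 to 1677 for the group difference in Cd8 (15 as reported), 10 to 805 in Cd4 (325), 115 to 767 in Foxp3 (325) and 77 to 1718 in co-receptor-negative T cells (438). For the classes it ranged from 2503 to 4871 (4802), 1450 to 3597 (2354) and 1615 to 4315 (3528) in the order above, for Pdcd1 from 908 to 3342 in Cd8 (2814), 460 to 1965 in Cd4 (1275), 6 to 527 in Foxp3 (341) and 524 to 1276 in co-receptor-negative T cells (880), and for expanded clonotypes from 812 to 3676 (2895). For the interactions it ranged from 3 to 394 (36), 23 to 582 (276), 0 to 1676 (2) and, with Pdcd1, 0 to 1077 (260).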
